A study of Mus musculus with 20 samples.

Results

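Transcript levels of secreted growth factors, their receptors and the proteins that carry or block them were compared in the prostates of 5 inbred mouse strains. The genes were taken by symbol: members of the Wnt, Frizzled, Sfrp, Dkk, Dact, Fgf, Igf, Bmp, Tgfb, Egf, Erbb, Smad, Pdgf, Vegf, Notch and Jagged families, as named in the annotation of the array. They came to 108 array elements, the cDNA spots of the array, for 63 genes, of 11159 elements and 5820 named genes tested. No Egf receptor and no Notch receptor gene was among them. None of the 108 elements lacked more than 3 of its 20 values, and 100 were complete. Of the 63 genes, 33 had several elements, and 57 elements were matched to a sequence that another element was matched to as well, so that such elements may be repeated spots and are not independent.

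The strains were C57BL/6J, 129X1/SvJ, FVB/NJ, BALB/c and DBA/2, none of them treated or genetically altered, and all mice were males of 8 to 9 weeks. In each strain 12 animals were divided into 4 pools of 3, 60 mice in all. For each pool, equal amounts of total RNA of the anterior, dorsal, lateral and ventral lobes were combined and then amplified. No lobe was measured by itself. Every pool was hybridized on its own 2-colour array against a common reference that combined RNA of all strains, and each value is a log2 ratio of pool over reference, as normalized by the authors. In each strain 2 pools carried Cy5 and 2 carried Cy3. The mice of C57BL/6J, 129X1/SvJ and FVB/NJ came from the Jackson Laboratory and those of BALB/c and DBA/2 from the Charles River Laboratories. Breeder and strain cannot be told apart in a comparison that takes in strains of both breeders. Between strains of the same breeder, such as C57BL/6J and FVB/NJ, the breeder did not differ. A ratio to the reference gives the order of the strains for an element and not its level against another element, and in whole tissue fewer cells of a type and less RNA per cell cannot be told apart.

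Wnt proteins are secreted ligands of Frizzled receptors, and Sfrp and Dkk proteins bind the ligands or their co-receptors and block them. Ligands of the TGF-beta and BMP family signal through type I and type II serine/threonine kinase receptors, which phosphorylate Smad transcription factors, whereas Fgf, Igf, Egf, Pdgf and Vegf ligands act on receptor tyrosine kinases. In the prostate these factors pass between stroma and epithelium and take part in bud formation, branching and the growth response to androgen.

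The arrays held 10998 to 11251 values each, and their number limits the precision. Arrays of 129X1/SvJ were the widest, with a median absolute deviation of 0.29 to 0.44, against 0.16 to 0.29 in the other strains. Pool 4 of 129X1/SvJ alone held the lowest of the 20 values for 18 of the 100 complete elements and the highest for 10, against 19.0% and 16.1% of all complete elements. Of 9 measured markers of prostate luminal epithelium 5 passed the F test described below, and their mean log2 ratio over the list ranged over the pools of a strain from 0.13 to 0.26 in C57BL/6J, from -0.16 to 0.15 in 129X1/SvJ, from -0.25 to -0.01 in FVB/NJ, from -0.31 to -0.11 in BALB/c and from -0.43 to -0.11 in DBA/2. Of 14 markers of fibroblasts and matrix 4 passed, and their mean ran from -0.01 to 0.19 in C57BL/6J, from -0.35 to 0.17 in 129X1/SvJ, from -0.18 to -0.03 in FVB/NJ, from -0.11 to 0.02 in BALB/c and from 0.07 to 0.18 in DBA/2. Of 6 seminal vesicle genes 3 passed, and their mean lay between 0.57 and 1.42 in BALB/c pools and between -3.56 and -0.04 in the pools of the other strains. Counts of other marker lists past the test were 0 of 3 for basal epithelium, 0 of 7 for smooth muscle, 0 of 6 for endothelium, 1 of 3 for leukocytes, 2 of 7 for skeletal muscle, 1 of 4 for adipose tissue and 0 of 5 for neurons. All these counts take 1 main element for each gene, that with the fewest missing values, by which 12.5% of all genes passed. With any element counted, 7 of 9 luminal, 5 of 14 fibroblast and 1 of 3 basal markers passed, against 14.2% of all genes. The counts of the other lists were the same. The part of cell composition in the results below was not tested.

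Strain means differed for 15 of the 108 elements, which belong to 11 of the 63 genes (17.5%, against 14.2% of all 5820 genes), by a moderated F test over the 5 strains (limma, adjusted p at most 0.1 over all elements tested). The share was 13.9%, near the 11.3% of all 11159 elements that passed. Genes with several elements, which have more chances to pass, were 33 of the 63, against 1635 of all 5820. By 1 main element for each gene, that with the fewest missing values, 14.3% of the 63 genes passed, against 12.5% of all. At an unadjusted p under 0.05 the count of elements was 25 of 108, against 19.9% of all. The difference between the highest and the lowest strain mean had a median of 0.38 over the 108 elements and 0.32 over all elements on the log2 scale. It exceeded 1 for 3 elements (2.78%), against 4.39% of all. Egf, Wnt4, Igf1 and Igfals, all of them secreted proteins, differed most among the 11 genes. No element of a Frizzled receptor, a Wnt inhibitor or a gene of the Fgf family passed. The count of 15 was 24 without 129X1/SvJ pool 4, where 15.7% of all elements passed, and 15 without the 4 arrays of 129X1/SvJ, where 13.2% did.

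**Figure D1:**
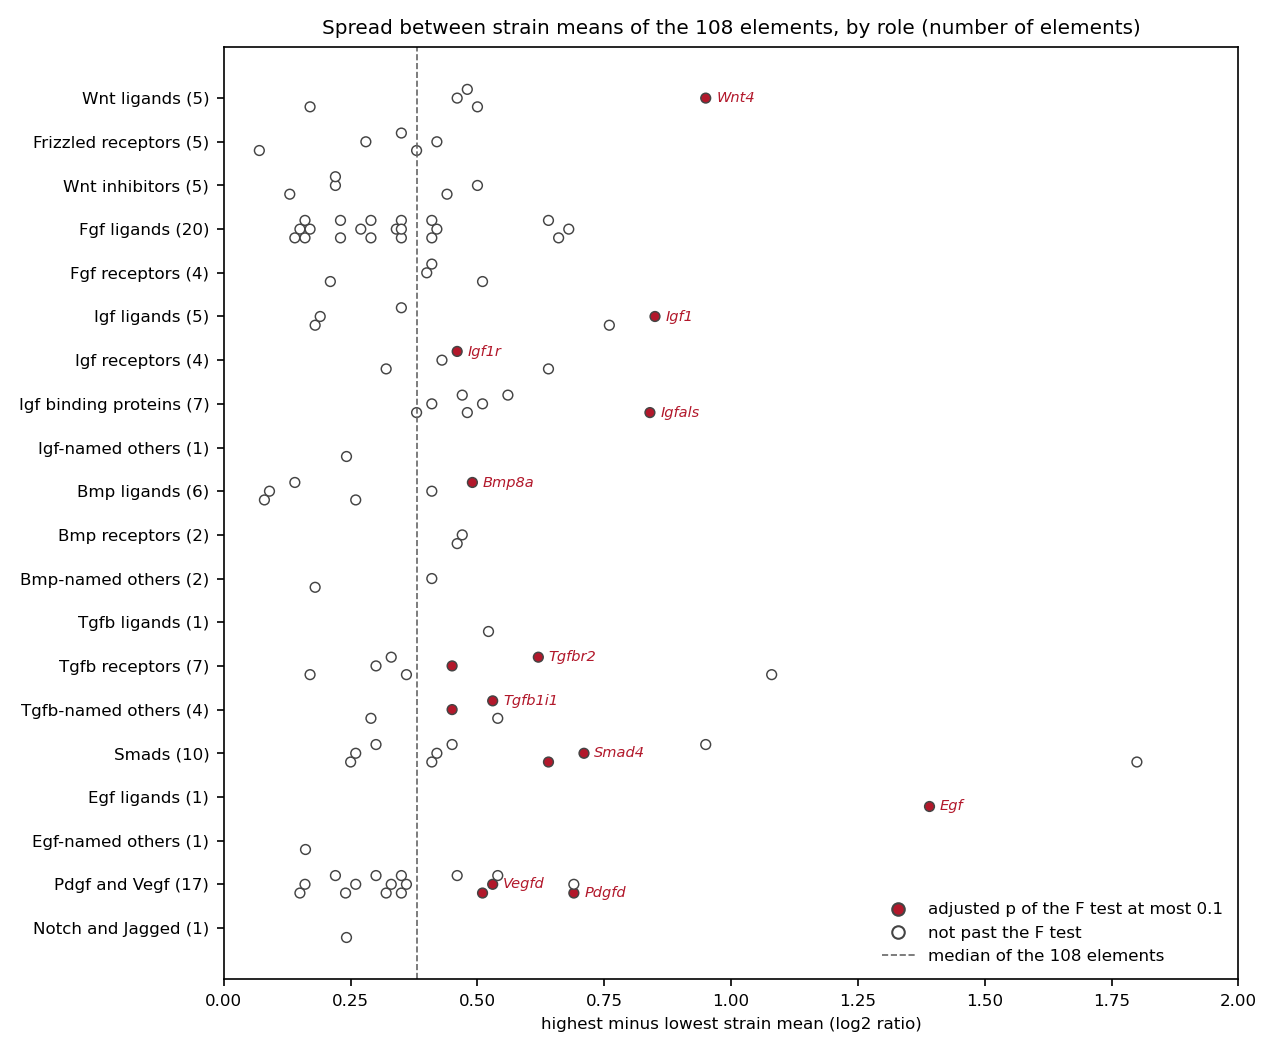
Difference between the highest and the lowest of the 5 strain means (log2 ratio) for each of the 108 elements, in rows by the role of the gene, with filled points for the 15 elements past the F test and a dashed line at the median of 0.38. Egf lies at 1.39 and Wnt4 at 0.95, and the elements of Smad7 at 1.80 and 0.95 and of Tgfbr3 at 1.08 are not filled.

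Egf, epidermal growth factor, a ligand of the Egf receptor that mouse salivary gland also makes in large amounts, had the strongest difference. Its element read -0.93, -0.38, -0.53 and -2.08 in pools 1 to 4 of 129X1/SvJ and -0.88, -0.96, -0.99 and -0.69 in those of FVB/NJ. It read 0.15, 0.18, 0.32 and 0.49 in C57BL/6J, 0.16, 0.23, 0.61 and 0.63 in BALB/c pools and 0.15, 0.46, 0.26 and 0.37 in DBA/2. All 8 pools of 129X1/SvJ and FVB/NJ lay below all 12 pools of the other strains. BALB/c averaged 0.41 ± 0.25 and 129X1/SvJ -0.98 ± 0.77 (SD, n = 4 each), a difference of 1.39 or 2.62-fold (adjusted p = 0.000357, limma F test). The difference was 1.93 with the samples in Cy5 and 0.85 with the samples in Cy3. Against the mean of the other 4 strains, 129X1/SvJ was lower by 1.01 (SE 0.20, adjusted p = 0.00317) and FVB/NJ was lower by 0.89 (SE 0.20, adjusted p = 0.0149). Without 129X1/SvJ pool 4, which gave the value of -2.08, the difference of 129X1/SvJ was -0.64. The call of FVB/NJ was lost without FVB/NJ pool 1, 2 or 3 (adjusted p = 0.0539, 0.0708 and 0.0697). It held without each of the 17 other arrays (limma, adjusted p down to 9.43e-06). The mean of the luminal markers was 0.18 in C57BL/6J, -0.04 in 129X1/SvJ, -0.11 in FVB/NJ, -0.19 in BALB/c and -0.24 in DBA/2. In 129X1/SvJ single markers went different ways, with Sbp at -0.94 and Epcam at 0.41. The part of these markers in the difference of Egf was not tested.

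The promoter of Egf is shown because this gene separated the strains most clearly. It covers 250 bases before and 50 after the RefSeq start that is listed first of 2 for the gene, at chr3:129755273-129755572 of GRCm38.p6, minus strand, 5′ to 3′. This build is the sequence of C57BL/6J, so a base that differs in another strain would not appear in it. The TATA box motif TATAAA, the GC box motif GGGCGG, the androgen receptor motif AGAACA and the Tcf/Lef motif CTTTGAT were searched on both strands, overlaps included, and matches are in capitals. These letters do not occur in the window.
Egf: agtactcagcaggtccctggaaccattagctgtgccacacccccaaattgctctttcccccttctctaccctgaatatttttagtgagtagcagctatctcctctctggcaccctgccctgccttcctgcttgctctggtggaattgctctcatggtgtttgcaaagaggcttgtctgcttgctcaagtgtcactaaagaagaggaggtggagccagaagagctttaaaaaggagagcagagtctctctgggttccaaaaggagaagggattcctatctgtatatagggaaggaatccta
Over all 32851 promoters of this length, 13.6% held TATAAA, 35.7% GGGCGG, 19.0% AGAACA and 3.73% CTTTGAT. Promoters were found for 50 of the 63 genes, 67 promoters in all, of which 11.9% held TATAAA, 56.7% GGGCGG, 7.46% AGAACA and 1.49% CTTTGAT.

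**Figure D2:**
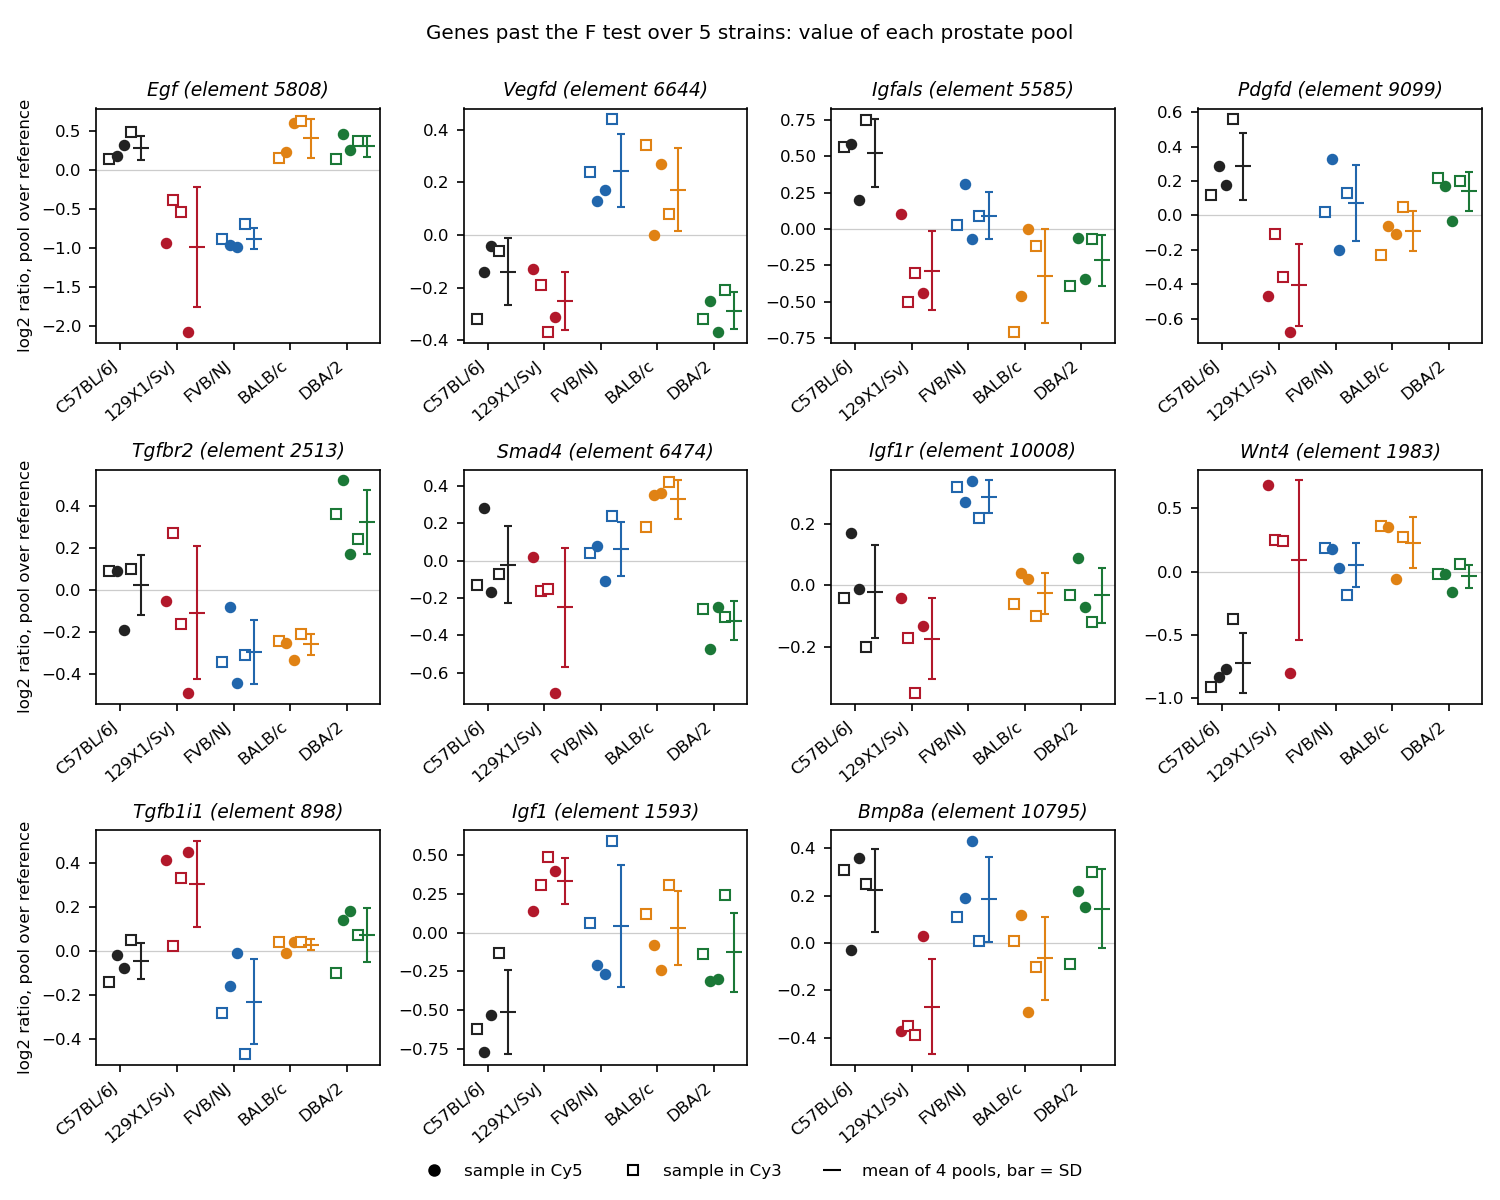
Log2 ratio of each pool over the common reference, by strain, for the 11 genes past the F test, each shown by its element with the lowest p. Filled circles are samples in Cy5, open squares samples in Cy3, and the bar gives the mean and SD of 4 pools; Egf is low in 129X1/SvJ and FVB/NJ, and Wnt4 and Igf1 are low in C57BL/6J.

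Of 5 Wnt ligand elements, for Wnt2, Wnt4 and Wnt5a, that of Wnt4 passed, where 11.3% of all elements did. Wnt4, a ligand needed for the formation of kidney tubules and of the female reproductive tract, read -0.91, -0.83, -0.77 and -0.37 in C57BL/6J pools. It read 0.68, 0.25, 0.24 and -0.80 in 129X1/SvJ, 0.19, 0.18, 0.03 and -0.18 in FVB/NJ, 0.36, 0.35, -0.06 and 0.27 in BALB/c pools and -0.02, -0.02, -0.16 and 0.06 in DBA/2. Only pool 4 of 129X1/SvJ lay among the C57BL/6J pools, and the other 15 pools were above them. BALB/c averaged 0.23 ± 0.20 and C57BL/6J -0.72 ± 0.24 (SD, n = 4 each), a difference of 0.95 or 1.93-fold (adjusted p = 0.0364, limma F test). The difference was 0.94 in Cy5 and 0.96 in Cy3. C57BL/6J was lower than the mean of the other strains by 0.80 (SE 0.17, adjusted p = 0.00893). This call was lost without C57BL/6J pool 1 (adjusted p = 0.058), and that of the F test without C57BL/6J pool 1, 2 or 3 (adjusted p = 0.144, 0.126 and 0.112).

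The other Wnt elements gave no call. Wnt5a, a ligand that acts largely without beta-catenin, averaged 0.31 ± 0.31 in C57BL/6J and -0.17 ± 0.67 in 129X1/SvJ (adjusted p = 0.74), and the 3 elements of Wnt2 had adjusted p of 0.303, 0.43 and 0.913. The 5 elements of the Frizzled receptors Fzd1, Fzd4, Fzd9 and Fzd10 differed between strains by 0.07 to 0.42. Among the inhibitors Dact1, Dkk2, Sfrp1 and Sfrp2 the difference was 0.13 to 0.50. It was widest for Sfrp2, a secreted Frizzled-related protein, which averaged 0.27 ± 0.51 in 129X1/SvJ and -0.22 ± 0.22 in C57BL/6J (SD, n = 4 each, adjusted p = 0.338). The SD of Dact1, an intracellular antagonist of the pathway, was 3.51 in 129X1/SvJ, where its pools read -0.17, 3.06 and -3.96 with 1 value missing, and at most 0.25 in the other strains.

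In the Igf system, Igf1, Igf1r and Igfals passed by 1 element each, 3 of 10 genes, where 14.2% of all genes had an element past the test. By the main element of each gene, Igf1 and Igfals passed and Igf1r did not, where 12.5% of all genes passed. Igf1, insulin-like growth factor, was lowest in the strain in which Wnt4 was lowest. Its pools read -0.62, -0.77, -0.53 and -0.13 in C57BL/6J, against 0.14, 0.31, 0.49 and 0.40 in 129X1/SvJ, 0.06, -0.21, -0.27 and 0.59 in FVB/NJ, 0.12, -0.08, -0.24 and 0.31 in BALB/c pools and -0.14, -0.31, -0.30 and 0.24 in DBA/2. Pools 1 to 3 of C57BL/6J lay below the 16 other pools, and pool 4 lay among them. 129X1/SvJ averaged 0.33 ± 0.15 and C57BL/6J -0.51 ± 0.27 (SD, n = 4 each), a difference of 0.85 or 1.80-fold (adjusted p = 0.0449, limma F test), and the difference was 0.92 in Cy5 and 0.77 in Cy3. Its other element, matched to the same sequence, differed by 0.76 between the same strains and did not pass (adjusted p = 0.172). C57BL/6J was lower than the other strains by 0.58 (SE 0.15, adjusted p = 0.0305). Adipose markers, of which 1 of 4 passed, were also lowest in C57BL/6J, with a mean of -0.28 (pools from -0.43 to -0.14). They were highest in 129X1/SvJ, with a mean of 0.13 (pools from -0.21 to 0.40). Fabp4, a fatty acid-binding protein of adipocytes, averaged 0.40 in 129X1/SvJ and -0.49 in C57BL/6J (adjusted p = 0.00948, limma F test). Adig had the same highest and lowest strain, Cidec was highest in DBA/2 and lowest in C57BL/6J, and Retn was highest in DBA/2 and lowest in FVB/NJ. Markers of skeletal muscle (-0.26), smooth muscle (-0.15) and endothelium (-0.12) also had their lowest mean in C57BL/6J. The part of these markers in the result of Igf1 was not tested. The C57BL/6J call of Igf1 was lost without C57BL/6J pool 1, 2 or 3 (adjusted p = 0.129, 0.182 and 0.0895), with scaled arrays (0.0509), with no moderation (0.0501) and without the 129X1/SvJ arrays (0.0812). The call of the F test was lost without the same 3 pools (adjusted p = 0.127, 0.144 and 0.106) and with scaled arrays (0.109).

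The promoters of Wnt4 and Igf1 are shown because these genes were the 2 that read lower in C57BL/6J than in the other strains. They are 300 bases each, cut around the start in the same way, 5′ to 3′ from GRCm38.p6, with the 4 motifs in capitals. That of Wnt4 is at chr4:137277385-137277684, plus strand, and that of Igf1 at chr10:87860861-87861160, plus strand.
Wnt4: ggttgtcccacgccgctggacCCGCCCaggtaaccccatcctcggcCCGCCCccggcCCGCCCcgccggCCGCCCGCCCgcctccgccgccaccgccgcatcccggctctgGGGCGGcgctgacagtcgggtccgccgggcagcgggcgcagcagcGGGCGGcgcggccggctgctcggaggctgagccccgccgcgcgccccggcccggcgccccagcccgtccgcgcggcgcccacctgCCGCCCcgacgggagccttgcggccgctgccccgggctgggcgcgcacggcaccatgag
Igf1: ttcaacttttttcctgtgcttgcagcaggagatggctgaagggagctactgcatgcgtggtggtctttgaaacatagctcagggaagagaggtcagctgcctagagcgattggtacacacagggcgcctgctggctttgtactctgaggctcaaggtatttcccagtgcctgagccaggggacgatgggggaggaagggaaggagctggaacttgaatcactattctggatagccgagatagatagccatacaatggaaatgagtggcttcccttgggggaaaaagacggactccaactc
The Wnt4 promoter was 84.3% G and C and held 8 matches of GGGCGG, 6 of them on the opposite strand, with 1 overlapping pair. The Igf1 promoter was 52.3% G and C and held none of the 4 motifs. That of Egf was 49.0% G and C.

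Igfals, the acid-labile subunit that the liver secretes and that holds Igf1 and Igfbp3 in a complex in serum, ran the other way in C57BL/6J. Its pools read 0.56, 0.58, 0.20 and 0.75 in C57BL/6J, 0.10, -0.50, -0.30 and -0.44 in 129X1/SvJ, 0.03, 0.31, -0.07 and 0.09 in FVB/NJ, -0.71, -0.46, 0.00 and -0.12 in BALB/c pools and -0.39, -0.06, -0.34 and -0.07 in DBA/2. Pools 1, 2 and 4 of C57BL/6J were above all others, and pool 3 lay below a single pool of FVB/NJ. C57BL/6J averaged 0.52 ± 0.23 and BALB/c -0.32 ± 0.32 (SD, n = 4 each), a difference of 0.84 or 1.79-fold (adjusted p = 0.00644, limma F test), which was 0.62 in Cy5 and 1.07 in Cy3. C57BL/6J was higher than the mean of the other strains by 0.70 (SE 0.13, adjusted p = 0.00283), and the call held without each of the 20 arrays in turn.

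Igf1r, the receptor tyrosine kinase of Igf1, had 2 elements that were matched to different sequences and did not show the same strain. The element past the test read 0.32, 0.27, 0.34 and 0.22 in FVB/NJ pools, all above the 16 other pools, whose highest was 0.17 in C57BL/6J pool 2. FVB/NJ averaged 0.29 ± 0.05 and 129X1/SvJ -0.17 ± 0.13 (SD, n = 4 each), a difference of 0.46 or 1.37-fold (adjusted p = 0.0325, limma F test). FVB/NJ was higher than the other strains by 0.35 (SE 0.08, adjusted p = 0.0132), and without FVB/NJ pool 1 or 3 this call (adjusted p = 0.0605 and 0.0664) and that of the F test (0.103 and 0.108) were lost. With elements averaged by gene, Igf1r did not pass the F test (adjusted p = 0.166). The other element averaged 0.28 ± 0.11 in C57BL/6J and -0.36 ± 0.34 in DBA/2, and -0.02 ± 0.10 in FVB/NJ, and did not pass (adjusted p = 0.193).

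The remaining Igf genes did not pass. Igfbp3, the main carrier of Igf1 in serum, averaged 0.28 ± 0.13 and 0.25 ± 0.11 in FVB/NJ for its 2 elements and -0.28 ± 0.22 and -0.23 ± 0.16 in C57BL/6J (SD, n = 4 each, adjusted p = 0.141 and 0.143). Elements of Igfbp4, Igfbp5 and Igfbp6 differed by 0.38 to 0.51 between strains, and those of the ligand Igf2 by 0.18 to 0.35. Igf2r, which clears Igf2 from the cell surface, differed by 0.32 and 0.43 (adjusted p = 0.419 and 0.527), and Igf2bp3, an RNA-binding protein, by 0.24 (adjusted p = 0.833).

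In the TGF-beta branch 2 of 7 receptor, 2 of 10 Smad and 2 of 4 other Tgfb-named elements passed, where 11.3% of all elements did. They belong to Tgfbr2, Smad4 and Tgfb1i1, each with 2 elements. Tgfbr2, the type II receptor that binds the ligand, was highest in DBA/2. Its element with the lower p read 0.36, 0.52, 0.17 and 0.24 in DBA/2 pools, against -0.34, -0.08, -0.44 and -0.31 in FVB/NJ and -0.24, -0.25, -0.33 and -0.21 in BALB/c. Pools of C57BL/6J lay between -0.19 and 0.10 and those of 129X1/SvJ between -0.49 and 0.27, so that 1 pool of 129X1/SvJ overlapped those of DBA/2. DBA/2 averaged 0.32 ± 0.16 and FVB/NJ -0.29 ± 0.15 (SD, n = 4 each), a difference of 0.62 or 1.53-fold (adjusted p = 0.0216, limma F test), at 0.61 in Cy5 and 0.62 in Cy3. The other element, matched to the same sequence, differed by 0.45 between these strains (adjusted p = 0.0957), and its call was lost without any of 13 arrays, among them DBA/2 pool 2 (adjusted p = 0.223), and with arrays centred on their median (0.11). DBA/2 was higher than the other strains by 0.48 (SE 0.11, adjusted p = 0.0168), a call lost without DBA/2 pool 1 or 2 (adjusted p = 0.0804 and 0.14). Fibroblast and matrix markers were also highest on average in DBA/2, at 0.12, as were those of smooth muscle (0.12), skeletal muscle (0.14) and endothelium (0.09). By main element, Col6a3, Col1a1, Sparc, Fbln1 and Col6a1 of the fibroblast list had their highest mean in DBA/2, and Thy1 and Fn1 their lowest. The part of these markers in the result of Tgfbr2 was not tested.

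Tgfbr1, the type I receptor, did not pass the F test (adjusted p = 0.132), but 1 of its 3 elements read 0.23, 0.32, 0.17 and 0.21 in 129X1/SvJ pools, above the 16 others, the highest of which was 0.16. Its difference from the other strains was 0.28 (SE 0.08, adjusted p = 0.0403), and it passed without only 4 of the 20 arrays (adjusted p up to 0.0907). It was named after its values were seen. Tgfbr3, a co-receptor, also named after its values were seen, had an element with a mean of -0.82 ± 1.76 in 129X1/SvJ (SD, n = 4) that rested on pool 4, at -3.36, while the strain's other pools lay between -0.35 and 0.72 (adjusted p = 0.561). Tgfb2, the single TGF-beta ligand measured, averaged 0.34 ± 0.19 in C57BL/6J and -0.18 ± 0.23 in FVB/NJ (adjusted p = 0.39).

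Smad4, the Smad that TGF-beta and BMP signals share, was highest in BALB/c. The element with the lower p read 0.18, 0.35, 0.36 and 0.42 in BALB/c pools, against -0.26, -0.47, -0.25 and -0.30 in DBA/2, 0.02, -0.16, -0.15 and -0.71 in 129X1/SvJ, 0.04, 0.08, -0.11 and 0.24 in FVB/NJ and -0.13, 0.28, -0.17 and -0.07 in C57BL/6J. BALB/c and DBA/2 pools did not overlap, and 1 pool each of FVB/NJ and C57BL/6J lay above the lowest BALB/c pool. BALB/c averaged 0.33 ± 0.11 and DBA/2 -0.32 ± 0.10 (SD, n = 4 each), a difference of 0.64 or 1.56-fold (adjusted p = 0.0223, limma F test). The other element past the test, matched to the same sequence, read 0.35 ± 0.16 in BALB/c and -0.36 ± 0.43 in 129X1/SvJ (adjusted p = 0.0307). The third, matched to another sequence, also had its highest mean in BALB/c, at 0.11 ± 0.15, and did not pass (adjusted p = 0.217). BALB/c was higher than the other strains by 0.46 (SE 0.11, adjusted p = 0.0315) and 0.53 (SE 0.13, adjusted p = 0.0392) for the 2 elements past the test. Without BALB/c pool 1, 2, 3 or 4 these calls were lost, with adjusted p of 0.0507, 0.127, 0.113 and 0.156 for the first and 0.0637, 0.157, 0.192 and 0.0969 for the other. The first was also lost without DBA/2 pool 2 (0.0512) and with the pool number as a block (0.0545), and the other without any of 7 arrays of other strains (adjusted p up to 0.0622). BALB/c pools are those with the high seminal vesicle genes.

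Of the other Smads, Smad1, Smad2 and Smad5 differed by 0.25 to 0.45, and none passed. Smad7, the inhibitory Smad, named after its values were seen, had the widest difference of all 108 elements, 1.80, and it did not pass (adjusted p = 0.689). Its pools read -1.50, 1.54, 0.80 and 0.32 in DBA/2 and -0.01 and -3.01 in 129X1/SvJ with 2 values missing, and -2.47, 2.09, 0.08 and 0.17 in FVB/NJ, so that pools of 1 strain differed by more than strain means did.

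Tgfb1i1, an adaptor of focal adhesions that also acts as a co-activator of the androgen receptor, was highest in 129X1/SvJ. Its pools read 0.41, 0.02, 0.33 and 0.45 in 129X1/SvJ, against -0.28, -0.16, -0.01 and -0.47 in FVB/NJ, and between -0.14 and 0.18 in the 12 other pools. Pools 1, 3 and 4 of 129X1/SvJ were above all others. 129X1/SvJ averaged 0.30 ± 0.19 and FVB/NJ -0.23 ± 0.19 (SD, n = 4 each), a difference of 0.53 or 1.45-fold (adjusted p = 0.0372, limma F test), at 0.51 in Cy5 and 0.55 in Cy3. The 2 other elements had the same highest and lowest strain, with differences of 0.45 (adjusted p = 0.0849) and 0.54 (adjusted p = 0.143). 129X1/SvJ was higher than the other strains by 0.35 (SE 0.09, adjusted p = 0.0243) and 0.32 (SE 0.09, adjusted p = 0.0366) for 2 of the elements. The first call was lost without 129X1/SvJ pool 1, 3 or 4 (adjusted p = 0.0599, 0.0586 and 0.0664), the other without any of 12 arrays (adjusted p up to 0.0998). The F test of the other element was lost without any of 14 arrays, with an adjusted p of 0.177 without 129X1/SvJ pool 3, and with scaled arrays (0.183), quantile normalization (0.167) or array weights (0.129). Tgfbi, a matrix protein induced by TGF-beta, differed by 0.29 (adjusted p = 0.7).

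Among Bmp genes, Bmp8a, a ligand needed for spermatogenesis, passed by 1 of its 2 elements. That element read -0.37, -0.35, -0.39 and 0.03 in 129X1/SvJ pools, 0.31, -0.03, 0.36 and 0.25 in C57BL/6J, and between -0.29 and 0.43 in the other strains. Pools 1 to 3 of 129X1/SvJ lay below all others. C57BL/6J averaged 0.22 ± 0.17 and 129X1/SvJ -0.27 ± 0.20 (SD, n = 4 each), a difference of 0.49 or 1.41-fold (adjusted p = 0.0702, limma F test). The call of the F test was lost without any of 10 arrays, with the highest adjusted p, 0.155, without 129X1/SvJ pool 3, and also with the pool number as a block (0.101), with scaled arrays (0.105), with quantile normalization (0.109) and with elements averaged by gene (0.268). The other element, matched to the same sequence, averaged -0.22 ± 0.42 in 129X1/SvJ and 0.00 ± 0.31 in C57BL/6J (adjusted p = 0.582). 129X1/SvJ was lower than the other strains by 0.39 (SE 0.10, adjusted p = 0.0317) for the first element, and without 129X1/SvJ pool 1, 2 or 3 this call was lost (adjusted p = 0.0684, 0.0696 and 0.0922). The 4 elements of Bmp4 and Bmp7 differed by 0.08 to 0.26, the receptors Bmpr1b and Bmpr2 by 0.47 and 0.46, Bmp2k, a kinase, by 0.41, and Bmp1, a procollagen proteinase, by 0.18, and none passed.

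Of 17 Pdgf and Vegf elements 3 passed, for 2 of 9 genes, where 11.3% of all elements and 14.2% of all genes did. Vegfd, a growth factor for lymphatic vessels, read 0.24, 0.13, 0.17 and 0.44 in FVB/NJ pools and 0.34, 0.00, 0.27 and 0.08 in BALB/c. It read -0.32, -0.25, -0.37 and -0.21 in DBA/2, -0.13, -0.19, -0.37 and -0.31 in 129X1/SvJ and -0.32, -0.14, -0.04 and -0.06 in C57BL/6J. All 8 pools of FVB/NJ and BALB/c lay above the 12 others. FVB/NJ averaged 0.24 ± 0.14 and DBA/2 -0.29 ± 0.07 (SD, n = 4 each), a difference of 0.53 or 1.45-fold (adjusted p = 0.00263, limma F test), at 0.46 in Cy5 and 0.61 in Cy3. FVB/NJ was higher than the other strains by 0.37 (SE 0.08, adjusted p = 0.0158), a call lost without FVB/NJ pool 1 or 4 (adjusted p = 0.0605 and 0.12). The other element, matched to the same sequence, differed by 0.51 between the same strains (adjusted p = 0.0758), and its call was lost without any of 11 arrays, with an adjusted p of 0.177 without FVB/NJ pool 4.

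Pdgfd, a ligand of Pdgf receptor beta, read -0.47, -0.11, -0.36 and -0.68 in 129X1/SvJ pools, against 0.12, 0.29, 0.18 and 0.56 in C57BL/6J. The pools of the other strains lay between -0.23 and 0.33, so that pool 2 of 129X1/SvJ overlapped them. C57BL/6J averaged 0.29 ± 0.19 and 129X1/SvJ -0.40 ± 0.24 (SD, n = 4 each), a difference of 0.69 or 1.61-fold (adjusted p = 0.014, limma F test), at 0.81 in Cy5 and 0.57 in Cy3. 129X1/SvJ was lower than the other strains by 0.51 (SE 0.11, adjusted p = 0.00657), and the call held without each of the 20 arrays in turn. It held in 6 of 11 other settings. Scaled arrays, quantile normalization, array weights and the arrays of either dye alone lost it. The other element, matched to the same sequence, had the same difference of 0.69 and a within-strain SD of 0.37, against 0.18, and did not pass (adjusted p = 0.277). Pdgfa, Pdgfb, Pdgfc, Pdgfra, Pdgfrb, Vegfa and Vegfb gave no call. Pdgfra, a receptor that marks fibroblasts, was named after its values were seen because its within-strain SD of 0.08 was the lowest of the 108 elements. It averaged 0.10 ± 0.13 in 129X1/SvJ and -0.12 ± 0.05 in BALB/c (SD, n = 4 each, adjusted p = 0.462).

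**Figure D3:**
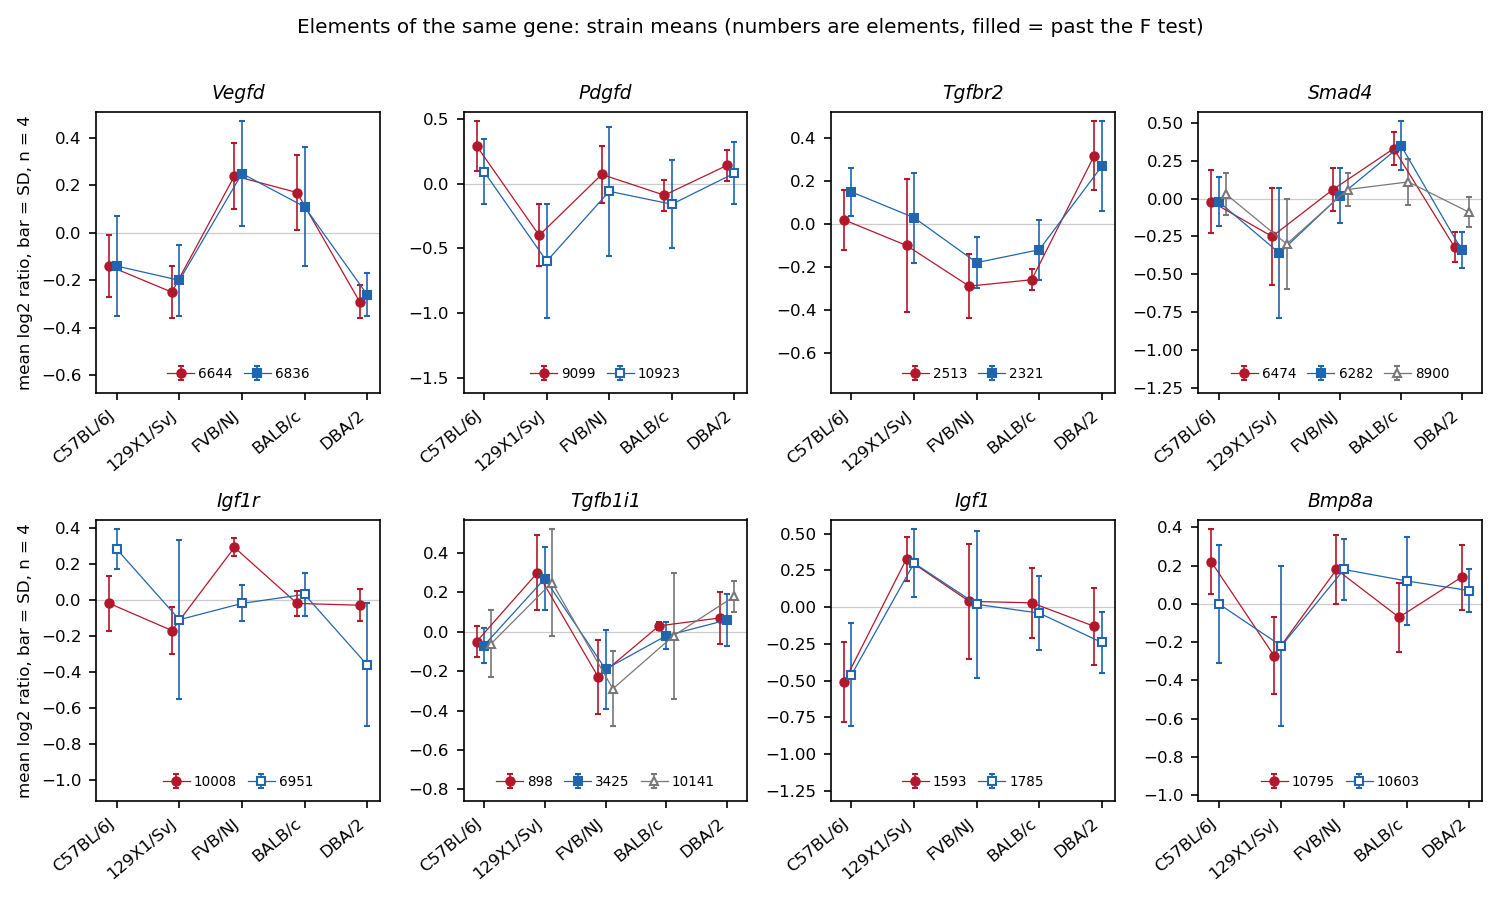
Mean log2 ratio and SD (n = 4 pools) in each strain for every element of the 8 genes past the F test that had several elements, with filled symbols for elements past the test and lines that join the means of 1 element. All elements of Vegfd, Smad4, Tgfb1i1 and Igf1 share the highest strain of their gene, as do those of Pdgfd and Tgfbr2, whereas Igf1r and Bmp8a each have 1 element highest in FVB/NJ and 1 in C57BL/6J.

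The Fgf family was the largest group, and no element of it passed the F test, where 11.3% of all elements did. Its 20 elements other than those of receptors, for Fgf2, Fgf6, Fgf7, Fgf8, Fgf9, Fgf10, Fgf11, Fgf12 and Fgf14, had adjusted p of 0.231 to 0.996. These genes were taken by name, and not all of them are secreted ligands. The median difference between the highest and the lowest strain was 0.32 over the 20 elements. Fgf7 and Fgf10, the stromal ligands of prostate growth, differed by 0.16 to 0.34 and by 0.29. Fgf8 had the widest elements, up to 0.68, with 2 values of 129X1/SvJ missing in 2 of them and a within-strain SD of 0.31 to 0.73. The receptors Fgfr1, Fgfr2 and Fgfr4 differed by 0.21 to 0.51, with adjusted p of 0.466 or more. Jag1, a Notch ligand and the single gene of the Notch and Jagged families, averaged 0.12 ± 0.17 in BALB/c and -0.12 ± 0.10 in FVB/NJ (adjusted p = 0.473), and Egflam, a matrix protein of retinal synapses, differed by 0.16 (adjusted p = 0.819).

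Each strain was then set against the mean of the other 4 at an adjusted p under 0.05 (limma, all 20 arrays). In 129X1/SvJ 6 of the 108 elements were apart, where 5.7% of all elements were. Of these 3 were higher, among them 2 elements of Tgfb1i1, and 3 lower, against 2.96% and 2.74% of all. C57BL/6J had 3 elements apart (3.22% of all), with 1 higher and 2 lower (1.77% and 1.44% of all). FVB/NJ also had 3 (2.55% of all), with 2 higher and 1 lower (1.22% and 1.34% of all). The 2 elements of BALB/c (2.03% of all) were both higher and none was lower, where 0.914% and 1.12% of all were. Both are elements of the single gene Smad4, matched to the same sequence, and are not independent. DBA/2 had 1 element apart (1.96% of all), which was higher, and none was lower, where 1.09% and 0.869% of all were. The median difference of the 108 elements from the mean of the other strains was 0.01 in C57BL/6J, -0.02 in 129X1/SvJ, 0.04 in FVB/NJ, -0.02 in BALB/c and 0.03 in DBA/2, and that of all elements lay between -0.01 and 0.01. The median SD of the pools over the 108 elements was 0.32 in 129X1/SvJ, 0.19 in C57BL/6J, 0.18 in FVB/NJ, 0.19 in BALB/c and 0.13 in DBA/2.

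These counts rested on single arrays. That of 129X1/SvJ was 12 without its pool 4 and 3 without its pool 3. That of C57BL/6J was 1 without its pool 1 and 5 without 129X1/SvJ pool 2. That of FVB/NJ was 0 without its pool 1, 6 without 129X1/SvJ pool 2 and 5 without 129X1/SvJ pool 4. That of DBA/2 was 0 without its pool 1 or 2 and 5 without 129X1/SvJ pool 4. That of BALB/c was 0 without any 1 of its pools or DBA/2 pool 2, 1 without C57BL/6J pool 1 or 4, FVB/NJ pool 2 or 4, or DBA/2 pool 3 or 4, and 5 without 129X1/SvJ pool 2. When arrays were scaled to the same spread, Egf alone stayed apart in 129X1/SvJ, with adjusted p of 0.193 for Tgfb1i1, 0.204 for its other element, 0.191 for Tgfbr1, 0.0535 for Pdgfd and 0.128 for Bmp8a.

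**Figure D4:**
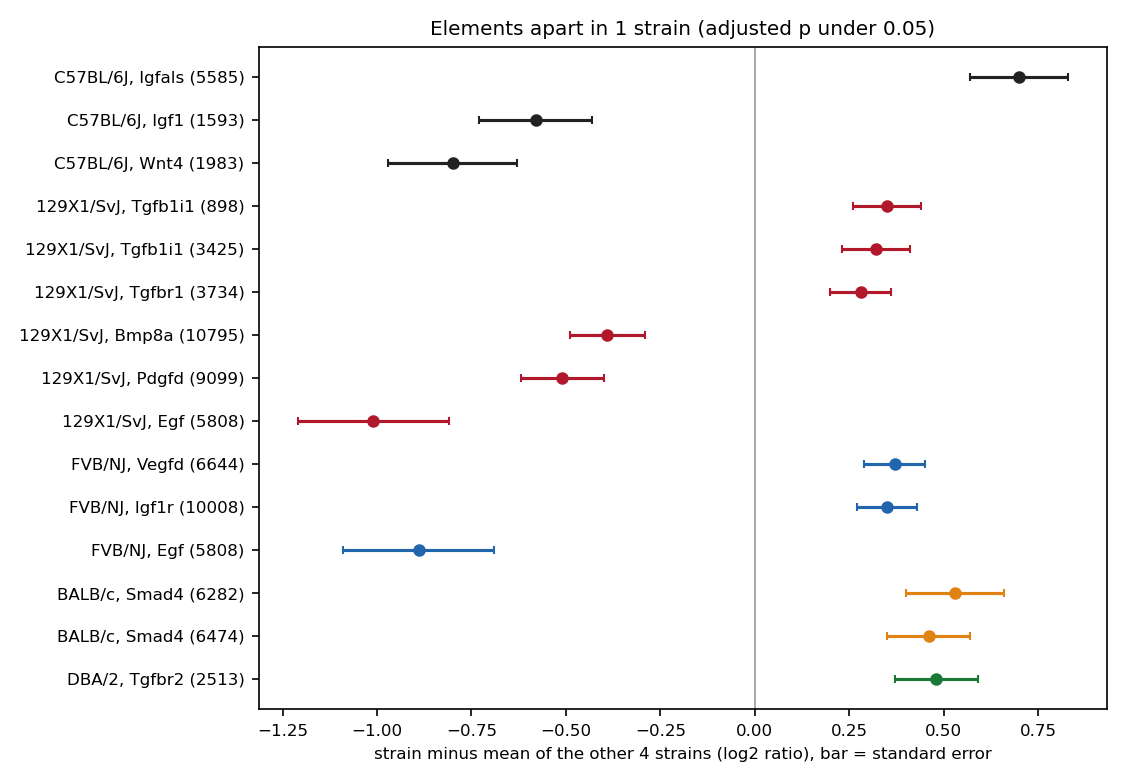
Difference of a strain from the mean of the other 4 strains (log2 ratio, bar = standard error of the limma fit) for each element with an adjusted p under 0.05, grouped and coloured by strain. Egf has the largest differences, -1.01 in 129X1/SvJ and -0.89 in FVB/NJ, and C57BL/6J has Igfals at 0.70 and Wnt4 at -0.80.

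The study carried 2 pairs of strains further, and both were fitted here on their own 8 arrays (limma, adjusted p under 0.05). The pairs share the C57BL/6J arrays. Between C57BL/6J and FVB/NJ 3 of the 108 elements passed, where 3.13% of all elements did, with 1 higher and 2 lower in C57BL/6J, against 1.93% and 1.2% of all. Egf was higher in C57BL/6J by 1.17 (SE 0.12, adjusted p = 0.000215), and Wnt4 was lower by 0.77 (SE 0.14, adjusted p = 0.0123). Both calls held without each of the 8 arrays in turn. Of 12 other settings, that of Egf held in 12 and that of Wnt4 in 8. An element of Igfbp3 was lower in C57BL/6J by 0.56 (SE 0.13, adjusted p = 0.0426), with pools of -0.19, -0.45, -0.47 and -0.01 in C57BL/6J, against 0.43, 0.36, 0.20 and 0.15 in FVB/NJ, and was named after its values were seen. The call of Igfbp3 was lost without every 1 of the 8 arrays except C57BL/6J pool 4 (adjusted p up to 0.122), and with the pool number as a block (0.0554). With all 20 arrays in 1 fit, that of Wnt4 had an adjusted p of 0.0654 and that of Igfbp3 of 0.0637.

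Between C57BL/6J and BALB/c 2 of 108 passed, where 2.79% of all elements did, with 1 higher and 1 lower in C57BL/6J, against 1.6% and 1.18% of all. Wnt4 was lower in C57BL/6J by 0.95 (SE 0.14, adjusted p = 0.00427), and no pool of C57BL/6J overlapped those of BALB/c. Igfals was higher in C57BL/6J by 0.84 (SE 0.17, adjusted p = 0.0243), again without overlap, and lost its call without C57BL/6J pool 1, 2 or 4 (adjusted p = 0.0686, 0.0706 and 0.0656) or BALB/c pool 1 or 2 (0.0576 and 0.0911), so that the count was 1 without C57BL/6J pool 1 or 2 or BALB/c pool 1 or 2. The difference of Egf in this pair was -0.12 (SE 0.14, adjusted p = 0.76), and its C57BL/6J and BALB/c pools overlapped.

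The dye of the sample, the batch that the labels give, was tested as a term beside strain (limma, adjusted p under 0.05). Of the 108 elements 9, for 8 genes, differed between dyes, against 15.9% of all elements, 2 of them higher with the sample in Cy5 (8.57% of all) and 7 higher with it in Cy3 (7.37% of all). Both elements of Fgf9, a ligand that signals to the stroma in other organs, were lower in Cy5 by 0.71 (adjusted p = 6.57e-05 and 0.00104). In the element with the lower p, pools with the sample in Cy5 lay between -0.60 and -0.07, and pools with it in Cy3 between 0.06 and 0.90, without overlap in any strain. Fgf9 strain means differed by 0.29 and 0.17 (adjusted p = 0.945 and 0.996). Fgfr2, a receptor of Fgf7 and Fgf10, was lower in Cy5 by 0.53 in 1 of 2 elements (adjusted p = 0.00275), Igf2r by 0.32 in 1 of 2 (adjusted p = 0.0134), and Fzd4 was higher in Cy5 by 0.30 in 1 of 2 (adjusted p = 0.00207). Igf1 was lower in Cy5 by 0.34 (adjusted p = 0.0153) and was the single element past both the dye and the F test. Pdgfrb (-0.38, adjusted p = 0.0266), Vegfb (-0.25, adjusted p = 0.0482) and Smad7 (1.49, adjusted p = 0.0289) were the others, named after their values were seen. With the dye in the model 22 of the 108 elements passed the F test, where 15.6% of all did. With the arrays of 1 dye alone, which leaves 2 pools a strain, 2 passed in Cy5 and 6 in Cy3, against 2.77% and 7.34% of all. The count of 9 was 15 without 129X1/SvJ pool 1.

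**Figure D5:**
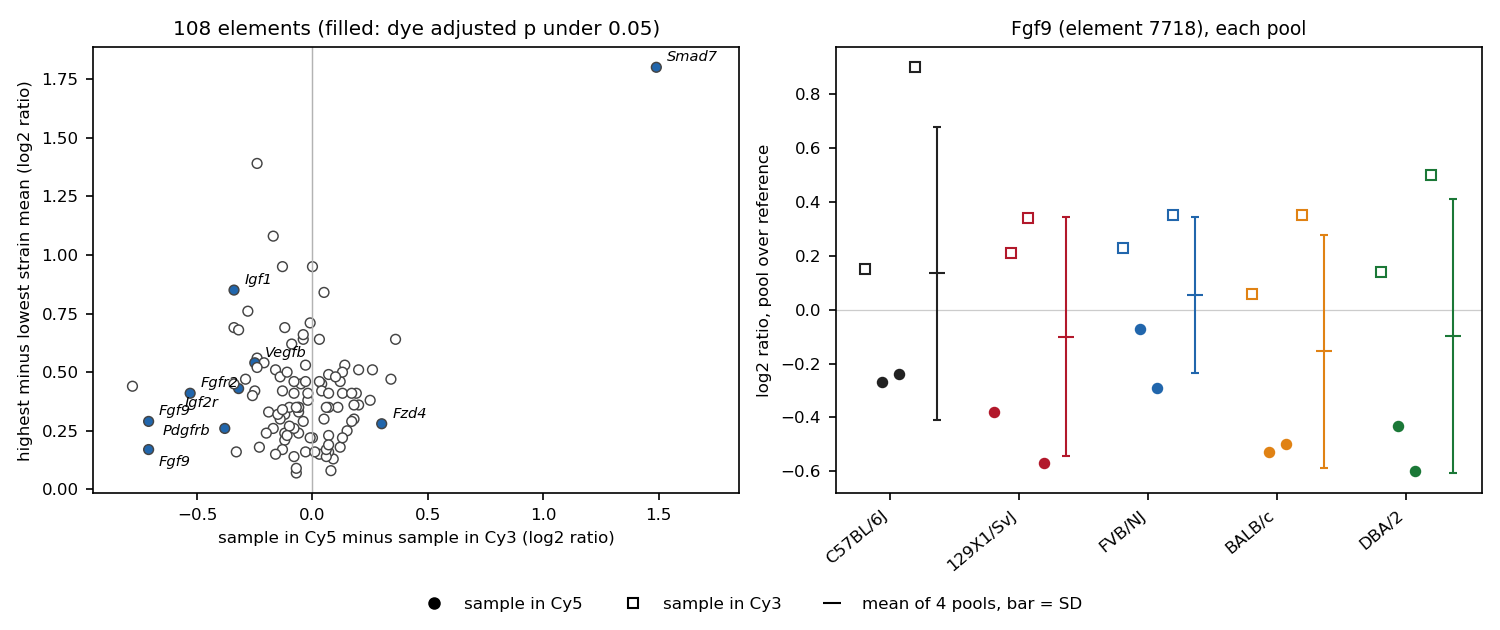
Left, each of the 108 elements by its dye difference (sample in Cy5 minus sample in Cy3, log2 ratio) and its distance from the highest to the lowest strain mean, with the 9 elements past the dye test filled. Right, the log2 ratio of each pool for Fgf9, where every circle (sample in Cy5) lies below 0 and every square (sample in Cy3) above it; bars give the mean and SD of 4 pools.

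Other genes of these pathways, from lists of 51 Wnt, 43 TGF-beta and BMP, 52 growth factor and receptor tyrosine kinase and 29 Notch genes, were measured for 20, 22, 18 and 8 genes. By the main element of each gene 1, 3, 0 and 0 of them passed the F test, and 3, 8, 2 and 1 had an unadjusted p under 0.05, where 12.5% and 22.1% of all 5820 genes did by their main element. The median distance from the highest to the lowest strain mean was 0.31, 0.40, 0.29 and 0.28 in the 4 lists, against 0.32 over all elements. Gdf10, a ligand of the TGF-beta family, read -0.61, -0.78, -0.40 and -0.79 in 129X1/SvJ pools and between -0.10 and 0.33 in the 16 others, without overlap. DBA/2 averaged 0.20 and 129X1/SvJ -0.64, a difference of 0.85 or 1.80-fold (adjusted p = 0.000188, limma F test).

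Ltbp4, which binds latent TGF-beta in the matrix, read -0.42, -0.78, -0.75 and -0.44 in BALB/c pools and -0.25 or more in the 16 others. 129X1/SvJ averaged 0.25 and BALB/c -0.60 (adjusted p = 0.0331), a call lost without BALB/c pool 2 or 3 (adjusted p = 0.137 and 0.119). Fst, follistatin, an inhibitor of activins, averaged 0.20 in DBA/2 and -0.27 in C57BL/6J (adjusted p = 0.0521, lost without C57BL/6J pool 1 or 4 or DBA/2 pool 2 or 3, at 0.113, 0.112, 0.125 and 0.101, and with elements averaged by gene, at 0.485). Vangl1, a membrane protein of planar cell polarity, averaged 0.34 in DBA/2 and -0.34 in BALB/c (adjusted p = 0.00885). Tcf7l2, a transcription factor that beta-catenin binds, had 1 element past the test, with 0.24 in FVB/NJ and -0.32 in BALB/c (adjusted p = 0.0412), and its main element did not pass and read -0.09 in both strains (adjusted p = 0.982). Fstl1, a secreted follistatin-like protein, had 1 element past the test, with 0.17 in BALB/c and -0.26 in 129X1/SvJ (adjusted p = 0.0306), and its main element, with 0.18 and -0.23 in the same strains, did not pass (adjusted p = 0.241).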

How the data were processed

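RNA of the prostate lobes, combined in equal amounts, was measured on 20 2-colour cDNA arrays, 4 pools in each of 5 strains. The deposited values are the authors' log2 ratios of sample over reference. Per the authors' methods, median background was subtracted from median foreground and each array was normalized by print-tip loess, and spots of low abundance were removed, a filter that could not be repeated from ratios. Of 11552 elements, 393 with more than 3 missing values or fewer than 2 values in a strain were left out. Gene symbols came from the annotation of the platform, in which 8050 elements had 1 symbol, 672 had several and 2830 were not listed. All 63 gene IDs matched the GRCm38.p6 gene table.

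The values were fitted with limma 3.58.1 (R 4.3.3) with Benjamini-Hochberg adjustment over 11159 elements: an F test over the strains (adjusted p at most 0.1), each strain against the mean of the others, C57BL/6J against FVB/NJ and BALB/c on their own arrays, and dye beside strain (adjusted p under 0.05 in each). No sample was imputed. Pools are separate animals, each on its own array, and p-values measure the spread between pools of 3 mice. That spread also holds differences between arrays and, in the fits without a dye term, between dyes. The genes and lists were chosen with earlier results of these data known. Named were the genes past the F test, up to 5 past the dye test, Egf and other pathway genes past the F test. In each role without such a gene, the one with the largest strain difference was named too. The main element of a gene was that with the fewest missing values. Members past the F test are described first by their element with the lowest p, which was chosen by its result. By their main elements Igf1r (adjusted p = 0.193, limma F test) and Bmp8a (0.582) did not pass. All other genes given with values, such as Wnt5a, Dact1 and Fgf8, were named after their values were seen. The fits were tested on simulated data.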

Additional observations from a re-analysis of the deposited data

Results flagged for a closer look

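Among the 159 groups of 4 pools examined, for the 32 named elements, 9 held a pool far from the other 3 by Dixon's criterion, a number that chance alone gives in about 1 in 20 groups. In C57BL/6J, Bmp2k read 0.65 in pool 2, against -0.04 to 0.04 in the others, and the Bmp8a element that did not pass the F test read -0.47 in pool 2, against 0.09 to 0.19. The Bmp8a element that passed read 0.03 in 129X1/SvJ pool 4, against -0.39 to -0.35. Bmpr1b, a BMP type I receptor, read 0.17 in FVB/NJ pool 3, against -0.50 to -0.39. In BALB/c pool 2, Tgfb2 read 0.08, against 0.29 to 0.32, and Tgfb1i1 read -0.01, against 0.04 in the others. Tgfbr2 read 0.01 in FVB/NJ pool 2, against -0.25 to -0.23, for the element with the higher p, and -0.19 in C57BL/6J pool 3, against 0.09 to 0.10, for the other. Vangl1 read 0.05 in C57BL/6J pool 1, against 0.30 to 0.31.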

How the results depend on the processing

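Of 1104 refits of the 32 named elements, 987 kept their direction and side of the threshold, 8 passed only in the refit, 107 no longer passed and 2 turned direction, to -0.01 for an element of Fzd4 in Cy3 alone (0.07 in the main setting) and to -0.01 for Igf2bp3 in Cy5 alone (0.24). The cause was not tested in either. The count of 15 past the F test was 6 in Cy3 alone and 2 in Cy5 alone, settings with 2 pools a strain, and 10 to 24 without 1 array. The count of C57BL/6J was 0 in Cy5 alone and 1 to 5 without 1 array. That of 129X1/SvJ was 1 with scaled arrays, quantile normalization or array weights, 11 with a dye term, 3 with elements averaged by gene and 3 to 12 without 1 array. That of FVB/NJ was 6 with scaled arrays, 7 with quantile normalization or array weights, 5 with a dye term or without the 129X1/SvJ arrays (a setting chosen after seeing the data), 1 in Cy3 alone, 0 in Cy5 alone and 0 to 6 without 1 array. That of BALB/c was 1 with the pool number as a replicate block, in Cy3 alone or by gene, 0 in Cy5 alone, 4 without the 129X1/SvJ arrays and 0 to 5 without 1 array. That of DBA/2 was 7 with scaled arrays, quantile normalization or array weights, 2 with no moderation, 0 in Cy3 or Cy5 alone, 5 without the 129X1/SvJ arrays and 0 to 5 without 1 array. For C57BL/6J against FVB/NJ the count was 1 in Cy3 alone, in Cy5 alone, with no moderation and with all 20 arrays in 1 fit, and 2 to 3 without 1 array. For C57BL/6J against BALB/c it was 4 with a dye term, 0 in Cy3 alone, in Cy5 alone and with no moderation, and 1 to 3 without 1 array. The dye count was 17 with scaled arrays, 20 with quantile normalization or without the 129X1/SvJ arrays, 25 with array weights, 21 with the block and 6 to 15 without 1 array. The pool number carries the dye, since pools 1 and 4 were in Cy3 and pools 2 and 3 in Cy5 in all strains but 129X1/SvJ, where it was the reverse. The correlation of the deviations of same-numbered pools was -0.33 to 0.42 over 40 pairs, of which 23 were over 0.1. Its median was 0.27 over the 24 pairs that share the dye and -0.12 over the 16 that do not. Of the 20 arrays 10 correlated best with their own number. Pairs with the same dye and different numbers were not compared, so these values cannot tell a pairing of the pools from the dye. The main fits left the number out. With the block the other counts were 15 for the F test, 8 for 129X1/SvJ, 4 for C57BL/6J against FVB/NJ and 3 for C57BL/6J against BALB/c. Ratios hold no signal over background, so the limit set by dim spots is unknown.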
